A study of Mus musculus with 2 samples.

Results

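The leukocyte miRNAs are 7 miRNA genes known from white blood cells: Mir142, Mir223, Mir342, Mir146, Mir155, Mir150 and Mir146b. They were taken by name from the 1973 miRNA gene rows of the deposited tables. For 6 of them the reads on the gene's own strand were used. For Mir142 the reads opposite to the row named Mir142b were used, because Mir142 is annotated there on the other strand. The samples are 2 libraries of liver from mouse embryos at 15.5 days, strain B6NCrl, sequenced for RNA under 30 nucleotides. Replicate 1 pooled the livers of 78 embryos and replicate 2 those of 62, males and females together, described as healthy and with no treatment or engineered allele named. There is 1 group, so the data give levels and the spread between pools, not a contrast of conditions, and a pool hides how single embryos differ. Each library held 6060619 and 3487976 reads assigned to a miRNA gene on either strand, in replicates 1 and 2. Levels are counts scaled to a total of 1000000 of these reads (CPM).

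A miRNA is cut from a hairpin precursor and guides Argonaute proteins to messenger RNAs, which it recognises mainly through its seed, bases 2 to 8. Fetal liver is a site of blood formation, where red cell precursors are joined by progenitors, macrophages, granulocytes and early B cells. Mir142 is made in most blood lineages, and Mir223 is known for granulocytes and monocytes and rises as myeloid cells mature. Mir150 is known for mature lymphocytes, Mir155 for activated lymphocytes and macrophages, and Mir146 for NF-kB signalling, which it dampens through Traf6 and Irak1. Only small RNAs were counted, so the label could not be checked against leukocyte messenger RNAs. In whole tissue, fewer cells of a type and less RNA per cell cannot be told apart.

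The mature sequences are shown first because the seed decides which miRNAs can share targets and because strand decides which gene is read at the Mir142 locus. They are from RefSeq, build GRCm38.p6, written 5′ to 3′ with the seed in capitals. Of the 7 genes, 6 matched a hairpin there and 7 at least 1 mature sequence. The arms printed are those the genes are best known for, since counts per gene do not separate the arms. Mir150 is named only.
miR-142a-5p: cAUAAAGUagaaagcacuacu
miR-142a-3p: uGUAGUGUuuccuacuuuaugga
miR-142b: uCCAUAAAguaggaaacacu
miR-223-3p: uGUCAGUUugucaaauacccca
miR-342-3p: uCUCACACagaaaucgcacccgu
miR-146a-5p: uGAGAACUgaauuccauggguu
miR-146b-5p: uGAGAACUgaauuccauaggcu
miR-155-5p: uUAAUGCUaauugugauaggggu
Of these, miR-146a-5p and miR-146b-5p have 1 seed in common, and for each of the other sequences 0 mature miRNAs of the RefSeq table had the same seed. None of the printed sequences occurs in the hairpin of another gene of that table. miR-146a-5p and miR-146b-5p are identical at 20 of 22 bases. They differ by G18A and U21C, with miR-146a-5p first and positions counted from the 5′ end, so their first 17 bases are the same.

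The Mir142 locus carries an annotated hairpin on each strand, printed here from the same table with the mature miRNAs in capitals.
Mir142, plus strand, chr11:87756864-87756927: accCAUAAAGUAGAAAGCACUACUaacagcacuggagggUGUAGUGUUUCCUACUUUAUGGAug
Mir142b, minus strand, chr11:87756841-87756955: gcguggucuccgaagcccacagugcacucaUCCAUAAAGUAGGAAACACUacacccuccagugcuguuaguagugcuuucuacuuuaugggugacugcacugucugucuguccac
The reverse complement of the 64-base Mir142 hairpin lies whole inside the 115-base Mir142b hairpin, from its base 29. miR-142b is the exact reverse complement of 20 bases of miR-142a-3p, from base 4 of that arm. A read from this place therefore belongs to one gene or the other by strand alone.

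Nearly every read at this locus lay on the strand of Mir142. At the Mir142b row (ENSMUSG00000065420.2) the annotated strand held 1 read in replicate 1 and 0 in replicate 2. The opposite strand held 193651 and 131496 reads. The Mir142 strand thus held 99.9995% of the row's reads in replicate 1 (exact Clopper-Pearson 95% interval 99.997 to 99.99999) and 100% in replicate 2 (lower bound 99.997). The other 6 rows were the reverse, with 0 opposite-strand reads each in both libraries. For Mir223, a count of 0 among 107680 and 57695 reads left an upper 95% bound of 0.00343% and 0.00639% opposite-strand reads.

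Rows read mainly from the other strand were few. Among the 234 rows with at least 100 reads in both libraries, 10 held more opposite-strand than annotated-strand reads in both, and the median row held 0%. The Mir142b row had the most opposite-strand reads of any row. It took 36.4% of all opposite-strand miRNA reads in replicate 1 and 41.3% in replicate 2. With the gene rows used here, annotated-strand counts alone give this locus 1 and 0 reads.

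**Figure D1:**
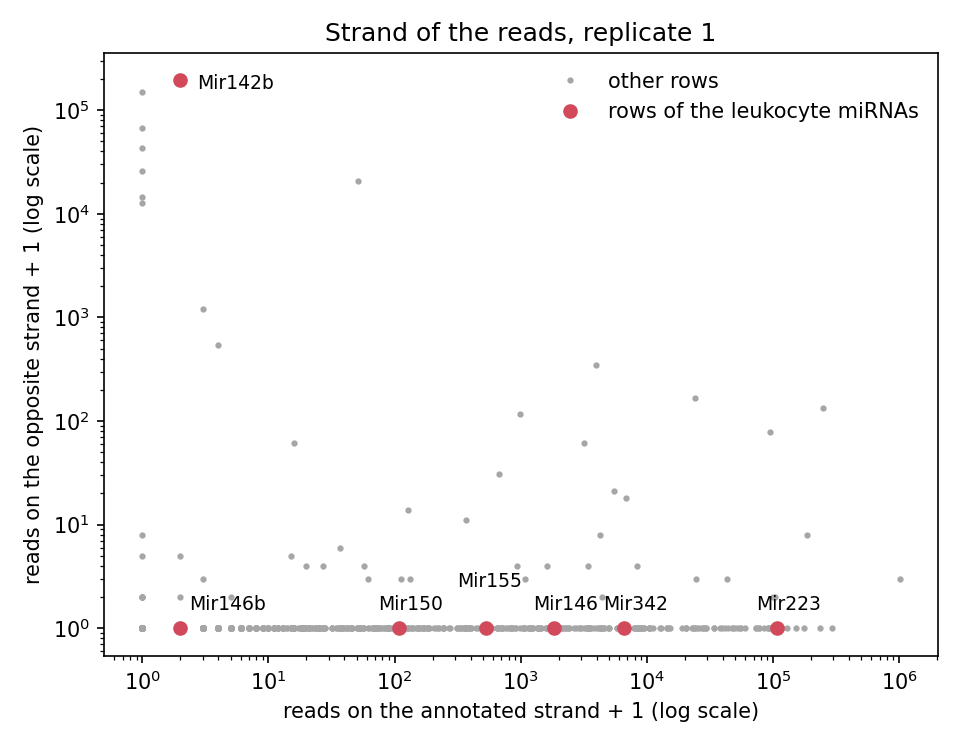
Reads on the annotated strand (x axis) and on the opposite strand (y axis) of each miRNA gene row in replicate 1, both plus 1 and on log scales, 1 point per row. The Mir142b row sits at the top left with 1 annotated-strand and 193651 opposite-strand reads, and the other 6 leukocyte rows lie on the bottom edge with 0 opposite-strand reads.

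Together the 7 genes held 5.12% of assigned miRNA reads in replicate 1 (5.10 to 5.14, exact 95% interval) and 5.56% (5.53 to 5.58) in replicate 2, a mean of 5.34% ± 0.309 (SD, n = 2). Mir142 and Mir223 made up 97.1% and 97.6% of that sum. Mir142 alone was 62.4% of the leukocyte reads in replicate 1 and 67.8% in replicate 2, and Mir223 was 34.7% and 29.8%. The remaining 5 genes came to 0.150% and 0.135% of assigned reads. Without Mir142 the share was 1.86% ± 0.0976, and without Mir223 it was 3.62% ± 0.395. At least 10 reads in both libraries were found for 6 of the 7, against 17.9% of all 1974 features (the 1973 annotated-strand rows plus Mir142). The exception was Mir146b.

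Other blood and liver miRNAs measured in the same libraries give the scale. Reads that map to several places were not counted. Whether mature sequences of these comparison genes also occur in other hairpins was not tested. The 3 erythroid genes Mir451a, Mir144 and Mir486 held 2.48% and 1.69% of reads in replicates 1 and 2. Within them Mir451a stood at 17022 and 8037 CPM, while Mir144 stood at 7095 and 8104 CPM and Mir486 at 652 and 744 CPM. By an exact binomial test between the libraries, adjusted over all genes, Mir451a was called lower and the other two higher in replicate 2. A set of 3 progenitor genes (Mir99b, Mir125a, Mir130a) held 2.22% and 2.25%, and 6 hepatocyte genes led by Mir122 held 17.8% and 16.4%. Mir142 had 1.88 times the reads of Mir451a in replicate 1 (1.86 to 1.89, exact 95% interval) and 4.69 times (4.63 to 4.75) in replicate 2. It had 4.50 times the reads of Mir144 in replicate 1 (4.46 to 4.55, exact 95% interval) and 4.65 times (4.59 to 4.71) in replicate 2. Against Mir122 its reads stood at 0.192 and 0.246 times.

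Mir142, whose loss disturbs many blood lineages in mice, was the highest member. It lies on chromosome 11 in an intron of the long noncoding RNA Mir142hg. Its level was 31952 CPM (31812 to 32093, exact 95% interval) in replicate 1 and 37700 CPM (37500 to 37900) in replicate 2, a mean of 34826 ± 4064 (SD, n = 2). It ranked 5 of all features in both libraries, also when each row's opposite strand was counted as a feature of its own. Its values did not overlap those of Mir26b, the next gene up, at 38929 and 40101 CPM. They did overlap those of Mir335, the next gene down, at 30922 and 37685 CPM.

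Mir223, a brake on neutrophil maturation and activity, came next among the members. The gene (ENSMUSG00000076066.1) lies on chromosome X at 96242817 to 96242926, plus strand, within exons of the noncoding gene F630028O10Rik. Its level was 17767 CPM in replicate 1 (17662 to 17873) and 16541 CPM in replicate 2 (16408 to 16676), a mean of 17154 ± 867. It ranked 12 and 14, or 13 and 15 with opposite strands counted as features. It lay below Mir21a (19272 and 18774 CPM) without overlap, and it overlapped Mir127 (16399 and 17251 CPM).

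Mir142 exceeded Mir223 in both pools, but not by the same factor. Replicate 1 gave a read ratio of 1.80 (exact 95% interval 1.79 to 1.81). The ratio in replicate 2 was 2.28 (2.26 to 2.30). These intervals do not meet, and they cover counting error only. Since Mir142 was higher and Mir223 lower in replicate 2, the ratio moved more than either gene.

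Mir342 is known from both myeloid and lymphoid cells, and lies in an intron of Evl, a regulator of the actin skeleton (ENSMUSG00000065436.1, chromosome 12, 108658620 to 108658718, plus strand). It had 6611 reads in replicate 1 and 3315 in replicate 2, or 1091 and 950 CPM, a mean of 1021 ± 99.3. Mir223 had 16.3 and 17.4 times as many reads. The libraries' values for Mir342 spanned those of its neighbour in level, Mir125a (1043 and 1017 CPM), and overlapped those of Mir181c (958 and 873 CPM).

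The NF-kB-linked pair was uneven. Mir146, which encodes miR-146a (ENSMUSG00000065601.1, chromosome 11, 43374397 to 43374461, minus strand, outside other annotated genes), had 1843 and 964 reads. That is 304 CPM in replicate 1 and 276 CPM in replicate 2, a mean of 290.2 ± 19.6, and the 2 values enclose those of Mir340 (303 and 283 CPM). Mir146b (ENSMUSG00000070127.2, chromosome 19, 46342762 to 46342870, in an intron of Mfsd13a) had 1 read in replicate 1 and 6 in replicate 2. These 6 reads amount to 1.72 CPM with a counting interval of 0.631 to 3.74, and the single read allows up to 0.919 CPM. The read ratio of Mir146 to Mir146b was 1843 (330 to 72834, exact 95% interval) in replicate 1 and 161 (73.5 to 439) in replicate 2. Reads that map to more than 1 place are outside these counts. How many of them held only the first 17 bases, which miR-146a-5p and miR-146b-5p have in common, was not tested.

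Mir155 and Mir150, the miRNAs of activated and of mature lymphocytes, were low. Mir155 (ENSMUSG00000065397.1, chromosome 16, 84714140 to 84714204, plus strand) lies in exons of its host transcript Mir155hg. It had 530 and 349 reads, or 87.4 CPM in replicate 1 (80.2 to 95.2) and 100.1 CPM in replicate 2 (89.8 to 111), a mean of 93.8 ± 8.92. Mir150, a repressor of Myb (ENSMUSG00000065495.1, chromosome 7, 45121757 to 45121821, plus strand, outside other annotated genes), had 107 and 60 reads. Its 17.7 CPM (14.5 to 21.3) and 17.2 CPM (13.1 to 22.1) gave a mean of 17.4 ± 0.320. That SD is smaller than the counting error of either library. Mir155 had 4.95 times the reads of Mir150 in replicate 1 and 5.82 times in replicate 2.

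**Figure D2:**
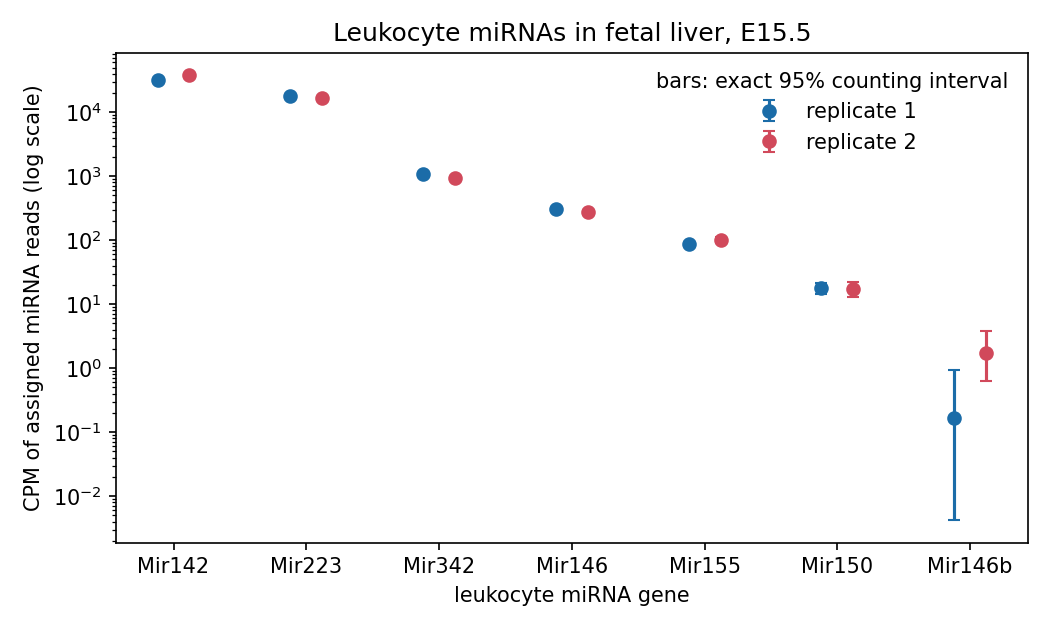
Level of each leukocyte miRNA gene in CPM on a log scale, 1 point per library, with exact 95% counting intervals as bars. Mir142 and Mir223 stand at means of 34826 and 17154 CPM, far above Mir342 at 1021, and Mir146b, with 1 and 6 reads, has the widest bars.

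The order of the members from Mir142 to Mir146b was the same in both libraries. No neighbours in it overlapped between libraries, with the values of each gene all above those of the next. Reads stand for whole mature molecules, so CPM was not divided by length. Per kb of annotated precursor, an alternative chosen after seeing the data, the order was also unchanged. How well each miRNA takes up adapters was not measured, so ratios between genes are ratios of reads.

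**Figure D3:**
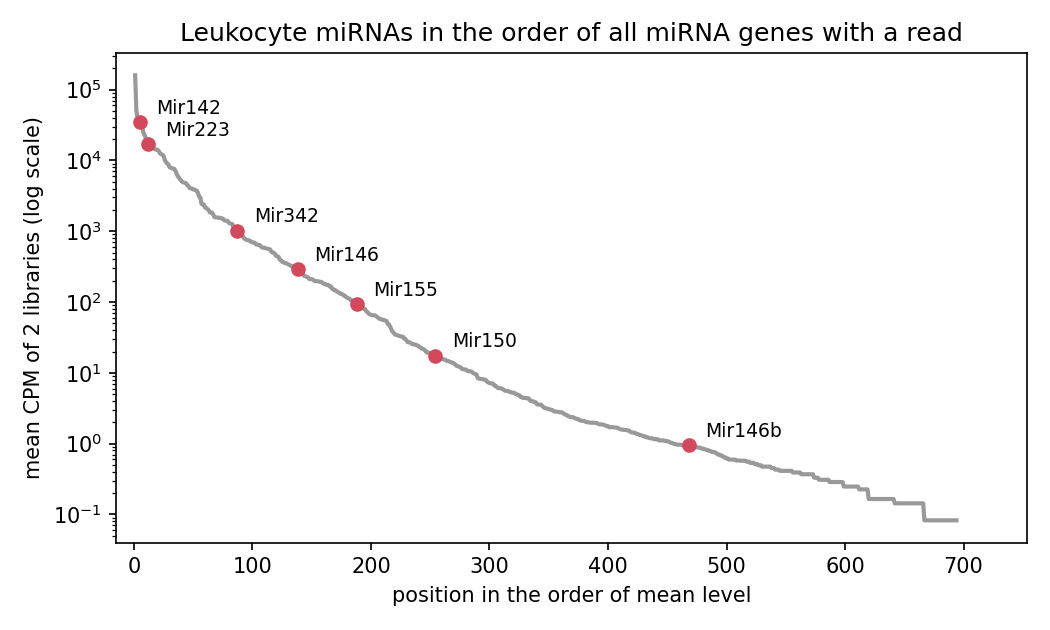
Mean CPM of the 2 libraries (y axis, log scale) against position in the order of level for all miRNA genes with a read (grey line), with the 7 leukocyte miRNAs as red points. Mir142 and Mir223 are at positions 5 and 12, Mir342 at 87, Mir146 at 138, Mir155 at 188, Mir150 at 254 and Mir146b at 468.

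The pools were then compared gene by gene. A two-sided exact binomial test asked whether a gene's reads split between the libraries as their TMM-scaled sizes predict, with Benjamini-Hochberg adjustment over 457 genes. It compares 2 libraries, not conditions, and covers counting error only. By this test 38.5% of all genes differed at an adjusted p under 0.05, and 61.5% of the 187 genes averaging 100 CPM or more did.

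Of the 6 leukocyte genes tested, 4 differed, 1 higher and 3 lower in replicate 2. Over all genes 18.8% were called higher and 19.7% lower. Each of the 4 members with at least 100 CPM was called, beside the 61.5% of genes at that level. The members' median log2 ratio was -0.09, against -0.02 over all genes tested.

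Mir142 was the one called higher in replicate 2, by 1.16-fold (exact 95% interval 1.15 to 1.17), a log2 ratio of 0.21. Its adjusted p in the exact binomial test was too small for the software to hold. Mir342 was called lower, with a log2 ratio of -0.22 (-0.28 to -0.16, exact binomial test, adjusted p = 2.56e-12). Mir223 stood at -0.13 (-0.14 to -0.11, adjusted p = 3.58e-64) and Mir146 at -0.16 (-0.28 to -0.05, adjusted p = 0.0156) by the same exact test.

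Mir155 had a log2 ratio of 0.17 (-0.03 to 0.37, exact binomial test, adjusted p = 0.174). For Mir150 it was -0.06 (-0.54 to 0.41, exact binomial test, adjusted p = 0.899). That interval runs from 0.687-fold to 1.33-fold. Mir146b had too few reads for the test at a minimum of 10. With no minimum its 1 and 6 reads were called higher in replicate 2 (exact test, adjusted p = 0.0494).

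The members were also set against how far genes in general differed between these pools. The SD of the log2 ratio over the 187 genes with at least 100 CPM was 0.203, and 39 of them lay beyond 1 SD. Mir342 lay at 1.10 SD and Mir142 at 1.06 SD, with 32 and 35 of the 187 genes further from 0. Mir146 at 0.794 SD and Mir223 at 0.625 SD lay inside it, so 2 of the 4 members at that level were beyond 1 SD. Mir155 and Mir150, with under 100 CPM, are not set against this spread. In the same pools the hepatocyte genes held 17.8% and 16.4% of reads, and the erythroid genes went in both directions, with log2 ratios of -1.11 for Mir451a, 0.17 for Mir144 and 0.17 for Mir486. The part of these genes in the higher Mir142 level was not tested.

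**Figure D4:**
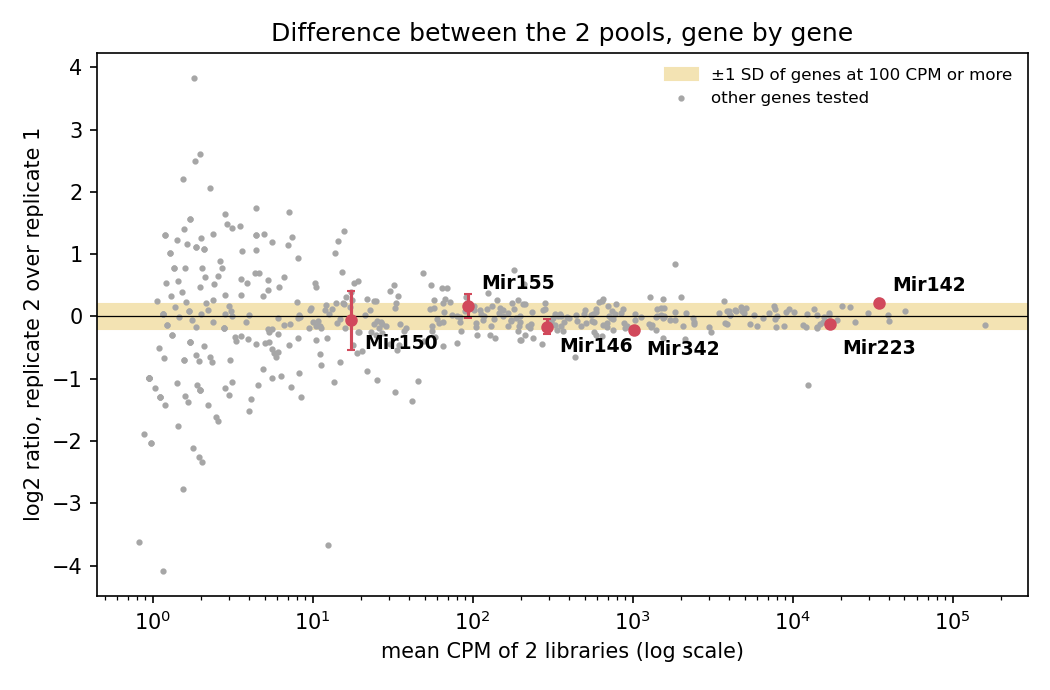
Log2 ratio of replicate 2 over replicate 1 on TMM-scaled sizes (y axis) against mean CPM (x axis, log scale) for the 457 genes tested. Red points are leukocyte miRNAs with exact 95% counting intervals, and the shaded band is ±1 SD (0.203) of genes with at least 100 CPM. Mir142 lies just above the band and Mir342 just below it.

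Other miRNAs known from white blood cells were read from a list of 15 genes in 3 groups. Of these, 14 had at least 10 reads in both libraries and were tested. By the exact binomial test 9 of 14 were lower in replicate 2 and 0 higher, beside 19.7% and 18.8% of all genes, and 11 had an unadjusted p under 0.05. In either direction 38.5% of all genes and 61.5% of those averaging 100 CPM or more were called. The median level of the list was 200 CPM. Their median log2 ratio was -0.21. Several are neighbours in clusters or carry identical mature sequences, so the genes of the list are not independent of each other.

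The group listed as the myeloid cluster held 1.24% and 1.16% of reads, nearly all from Mir23a at 11999 and 11138 CPM. Which cells of the whole liver gave these reads was not tested. Its partners stood lower, Mir27a at 239 and 214 CPM and Mir24-2 at 195 and 199.5 CPM. Mir24-2 is a lower limit, since miR-24-3p also occurs in another hairpin and reads that map to several places were not counted. Mir23a (log2 ratio -0.13, exact binomial test, adjusted p = 1.67e-46) and Mir27a (-0.18, adjusted p = 0.0159) were called lower in replicate 2.

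The miR-181 genes, of a family known from T and B cell development, held 0.216% and 0.190%. Whether lymphoid cells gave these reads was not tested. Mir181c led them at 958 and 873 CPM, close to Mir342, followed by Mir181d at 617 and 527 CPM. Of the 6, 4 were called lower in replicate 2, beside 19.7% of all genes tested: Mir181a-1, Mir181b-2, Mir181c and Mir181d. These averaged 326, 200, 916 and 572 CPM. Among genes averaging 100 CPM or more, 61.5% were called in either direction. Mir181b-1 and Mir181a-2, not called, averaged 5.92 and 11.1 CPM. The mature miR-181a-5p and miR-181b-5p each occur in more than 1 hairpin, so Mir181a-1, Mir181a-2, Mir181b-1 and Mir181b-2 are undercounted by an unknown amount.

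Among miRNAs induced when immune cells are activated, Mir21a was far the highest at 19272 and 18774 CPM. It is also abundant in many cell types that are not leukocytes. Mir187 stood at 645 and 534 CPM, Mir132 at 90.3 and 77.7 CPM, Mir147 at 28.0 and 15.5 CPM and Mir212 at 6.10 and 6.02 CPM. Mir9-2 had 0 reads in both, and its mature sequences also occur in other hairpins. Mir155 thus lay beside Mir132 in level, and both were more than 100-fold below Mir21a.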

How the data were processed

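Small RNA libraries were made from 2 pools of fetal mouse liver. The deposited tables hold raw counts of reads per miRNA gene, for both strands together, the gene's strand and the opposite strand, with no normalization. Assembly mm10 and annotation M4 are named in the text deposited beside the tables. For the aligner, counting program and trimming, nothing is stated (not given in the sources used here). Reads mapping to several places (29.3% and 31.1% of all reads) and unmapped reads (23.9% and 21.4%) were not assigned to genes and entered no test. They entered levels only as part of the total in the alternative over all reads.

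Names, positions and host genes came from GENCODE M21 (GRCm38), which matched 1894 of 1973 rows by stable identifier. The members, lists and named genes were chosen with earlier results of these data known. Named were the members, the genes next to them in level, and a list of 15 other white blood cell miRNAs. Among the 1894 matched rows, none other than a member's own row lay within 10 kb of a member, so none is named for its position. Rows without a match have no position and could not be searched. CPM used reads assigned on either strand. Log2 ratios add 0.5 to each count. TMM sizes came from edgeR 4.0.16 in R 4.3.3, alternative size factors from DESeq2 1.42.0, and the exact binomial test from scipy 1.17.1. The test was checked on simulated Poisson counts with set fold changes and no other spread between pools. That check does not show how the test behaves with the spread of real pools. Levels carry exact 95% intervals of 1 library's count, which cover counting error only. They also take reads as independent, and reads amplified by PCR are not independent molecules. A count of 0 allows 3 counts, or 0.495 and 0.860 CPM.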

Additional observations from a re-analysis of the deposited data

How the results depend on the processing

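With sense reads only as the total, the levels were 18838 CPM for Mir223, 1121 for Mir342, 319 for Mir146, 103 for Mir155 and 19.1 for Mir150. The summed reads of the members came to 5.87% of that total. This is not a share of sense reads, because the sum includes Mir142's opposite-strand reads and the total leaves them out. Over all reads in the table, with unassigned reads included, Mir142 came to 14379 CPM, Mir223 to 7083, Mir342 to 421, Mir146 to 120, Mir155 to 38.7 and Mir150 to 7.20. On TMM-scaled sizes Mir223 was 18151 CPM and Mir150 18.4. These sizes start from totals of 5722817 and 3301378 annotated-strand plus Mir142 reads, not reads on either strand. Their TMM factors were 0.993 and 1.007. The summed share was 1.858% from sense counts of all 7 rows, 1.858% without Mir142 and 3.62% without Mir223. Leaving out a library gave 5.12% to 5.56%. The count of members that differed was 4 under total counts, DESeq2 size factors, a minimum of 50 counts and unstranded counts, and 5 with no minimum, where Mir146b entered. Over all genes tested, total counts called 179 of 457, DESeq2 size factors 176 of 457 and a minimum of 50 counts 160 of 320. Unstranded counts called 187 of 468 genes, and no minimum 170 of 694. Of 30 alternative values of the 6 members' log2 ratios, 30 kept their direction and their side of the threshold. In the list of other white blood cell miRNAs, total counts lost Mir181a-1 (8 called) and a minimum of 50 counts added Mir132 (10 called). At about 100 reads or fewer, as at Mir150 and Mir146b, depth limits what could be seen. No paired analysis was possible because there is 1 group.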
